A study of Mus musculus with 9 samples.

Results

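Malat1 and Neat1 are long noncoding RNAs that stay in the nucleus, and their probe sets were read in bone marrow progenitors of E2A-/-, Lyl1-/- and wild-type (WT) mice. Every probe set that the array's annotation assigns to either gene alone was taken. This gave 9 probe sets, 7 of Malat1 and 2 of Neat1, out of 45037 probe sets that are not array controls, and 2 genes of 18193. The pair was selected on the Malat1 intensities of Lyl1-/- against WT arrays, where Malat1 had been seen to be lower, so the values of these probe sets in Lyl1-/- against WT are given as a description, without a test. A probe set is a group of short probes on the array for 1 stretch of a transcript, and its value is an intensity, the brightness of the bound RNA, on a linear scale. Differences are in log2 units, so that a negative value is a lower level.

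The cells had been sorted as lineage-negative and positive for CD117 (the receptor Kit), SCA-1 and CD135 (the receptor Flt3), a gate that holds multipotent progenitors with lymphoid potential. E2A-/- mice lack E2A, the basic helix-loop-helix protein encoded by Tcf3, Lyl1-/- mice lack Lyl1, a basic helix-loop-helix protein that pairs with E proteins, and WT mice served as controls. Each genotype had 3 arrays, called biological replicates in the labels. The sources used here give no age, sex or design of the null alleles.

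Malat1 is among the most abundant nuclear RNAs of mammalian cells. It gathers in nuclear speckles, the bodies where splicing factors are stored, and its 3-prime end is made by RNase P, which leaves an encoded A-rich tract where other transcripts have a poly(A) tail. Neat1 is the scaffold of paraspeckles, bodies that form beside speckles and hold RNA-binding proteins such as Nono and Sfpq. Its short form is polyadenylated and its long form, the one paraspeckles need, ends like Malat1. The genes of both RNAs lie next to each other on chromosome 19 in the mouse, as they do on the matching human chromosome. In whole-sample RNA, fewer cells that make a transcript and less of it per cell cannot be told apart.

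The start region of Malat1 is shown because E2A and Lyl1 act through E-boxes, the letters CANNTG. It is the RefSeq sequence of build GRCm38.p6, chr19:5802623-5802922, minus strand, from 250 bases before the transcript start to 50 bases after it, with the E-box in capitals.
Malat1: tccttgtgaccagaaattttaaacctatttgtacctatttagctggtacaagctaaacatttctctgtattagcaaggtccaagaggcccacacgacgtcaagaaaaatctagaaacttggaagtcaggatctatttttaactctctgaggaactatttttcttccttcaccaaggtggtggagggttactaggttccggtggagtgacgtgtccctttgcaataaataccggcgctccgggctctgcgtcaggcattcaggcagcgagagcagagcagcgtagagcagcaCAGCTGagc
Both strands were searched. The window held 1 CANNTG, spelled CAGCTG, which begins at base 292 of the window. Of 32851 mouse promoter windows of the same length, 72.3% held a CANNTG and 16.3% the letters CAGCTG, which CANNTG includes. The E-box spellings CAGGTG and CATCTG, found in 20.2% and 17.2% of the windows, and the GATA letters AGATAA and TGATAA, found in 11.2% and 9.05%, were not in this window.

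Some arrays stood apart before any result on the pair. The robust spread of the log2 difference between WT 1 and WT 3 was 0.0827 at bright probe sets and 0.0717 at dim ones, a ratio of 1.15, while in the other 35 pairs this ratio was 2.15 to 4.21. WT 1 and WT 3 were averaged and counted as 1 sample, which left 3 E2A-/-, 3 Lyl1-/- and 2 WT samples. Lyl1 itself read 89.6, 79.2 and 92.0 on the Lyl1-/- arrays, against 1429, 1352 and 1443 on the WT arrays. Tcf3 read 172.3, 192.8 and 121.4 on the E2A-/- arrays, against 204.6, 164.2 and 195.2 on the WT arrays (log2 difference -0.19, limma adjusted p = 0.888). The sources used here do not say whether its probes lie in the deleted part, so they leave the E2A-/- labels unchecked. The summed intensity of 11 granulocyte and monocyte marker genes was 16641 and 18738 on E2A-/- 2 and 3, against 1648 to 3345 on the other 7 arrays, with 10 and 9 of the 11 above the array median, against 6 to 8. E2A-/- 3 also had the highest sums of 3 erythroid markers (968.8, against 222.1 to 451.1 on the other 8 arrays) and of 4 megakaryocyte markers (1046, against 533.5 to 659.3). The 7 marker genes of stromal and endothelial cells summed to 897.6 on WT 2, against 498.9 to 539.2 on the other 8 arrays. On WT 2, 3 of the 7 were above the array median, against 1 to 2 elsewhere, and only 1 exceeded 2 times the median. Xist, the RNA of the inactive X chromosome, read 2362 on E2A-/- 2, 2011 on Lyl1-/- 1 and 2001 on Lyl1-/- 2, and between 79.7 and 103.7 on the other 6 arrays. The array's hybridization controls had geometric mean intensities of 1161, 1241 and 1129 on the WT arrays. These means were 2053, 1635 and 2294 on the Lyl1-/- arrays, with no overlap with WT, and 1045, 1522 and 2831 on the E2A-/- arrays. The gated receptors Kit and Flt3 were bright on every array (313.6 to 507.7 and 671.6 to 1302), as was the progenitor marker Cd34 (1071 to 1919).

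Malat1 was lower in both knockouts than in WT at its brightest probe set, 1418189_s_at. This probe set read 831.9, 635.9 and 516.7 on the E2A-/- arrays. It read 284.3, 379.3 and 521.6 on the Lyl1-/- arrays, against 1338, 1365 and 1407 on the WT arrays. All 6 knockout arrays lay below all WT arrays, and the ranges of both knockouts overlapped. Mean log2 intensity was 9.34 ± 0.344 in E2A-/- (SD, n = 3), 8.58 ± 0.438 in Lyl1-/- (n = 3) and 10.42 ± 0.00506 in WT (n = 2). Lyl1-/- progenitors thus had 28.0% of the WT intensity (log2 difference -1.84, SE 0.260). E2A-/- progenitors had 47.4% of it (log2 difference -1.08, SE 0.260), which did not pass the test over all 24212 probe sets tested (limma, Benjamini-Hochberg adjusted p = 0.218). In order of level, WT came first, then E2A-/-, then Lyl1-/-. The difference between the knockouts (-0.76, Lyl1-/- minus E2A-/-) was larger than either SD, their ranges overlapped by a narrow margin (Lyl1-/- 3 at 521.6 and E2A-/- 3 at 516.7), and it was not tested, since the Lyl1-/- values served to select the pair.

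**Figure D1:**
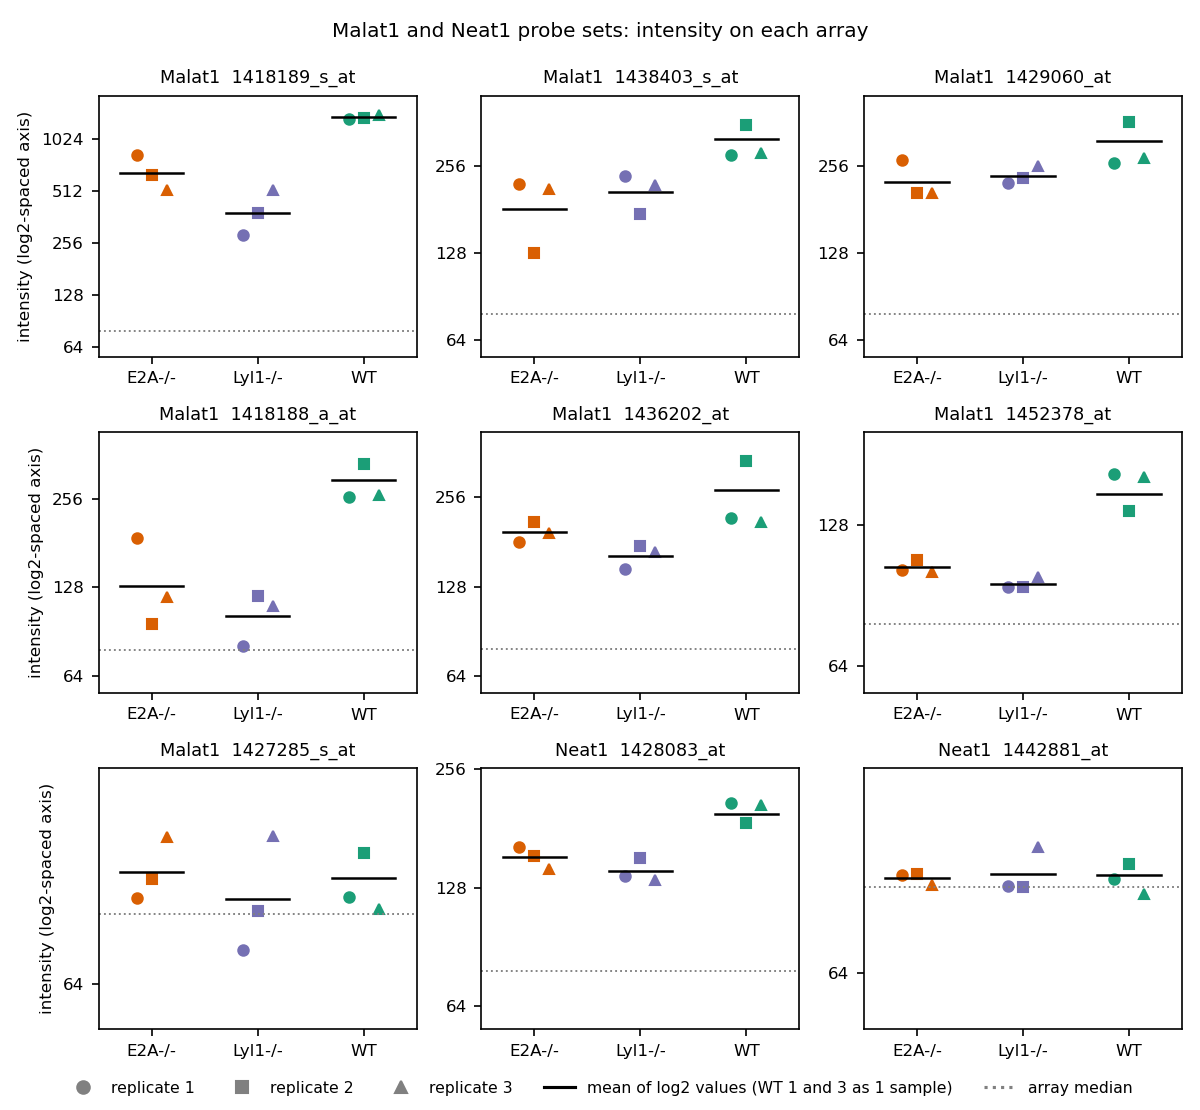
Intensity of the 7 Malat1 and 2 Neat1 probe sets (log2-spaced vertical axis, scaled per panel) on each array of E2A-/-, Lyl1-/- and WT. Points are arrays, bars are means of log2 values with WT 1 and WT 3 as 1 sample, and the dotted line is the array median. At 1418189_s_at the highest knockout array lies at 831.9 and the lowest WT array at 1338, while 1427285_s_at and 1442881_at lie near the array median in all 3 genotypes.

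A second Malat1 probe set, 1418188_a_at, differed by a similar size. It read 188.0, 96.3 and 118.3 on the E2A-/- arrays and 81.0, 119.6 and 110.9 on the Lyl1-/- arrays, against 258.3, 334.8 and 262.3 on the WT arrays. No knockout array reached the lowest WT array. The difference was -1.20 in E2A-/- (SE 0.280, limma adjusted p = 0.208) and -1.53 in Lyl1-/- (SE 0.280), that is 43.7% and 34.7% of the WT intensity. Over the 8 samples the log2 values of these 2 probe sets had a Pearson correlation of 0.915, which includes the differences between genotypes. Both carry suffixes that Affymetrix gives to probes matching several transcripts, and the sources used here do not place any of the 7 probe sets along Malat1.

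The next 3 Malat1 probe sets gave smaller differences. At 1438403_s_at the E2A-/- arrays read 221.3, 127.6 and 212.8 and the Lyl1-/- arrays 236.7, 175.4 and 220.0, against 280.9, 355.8 and 285.1 on the WT arrays. All knockout arrays were below all WT arrays here, at 57.3% of WT in E2A-/- (limma adjusted p = 0.372) and 65.9% in Lyl1-/-. Probe set 1436202_at read 180.7, 212.0 and 193.3 in E2A-/- and 146.7, 174.8 and 166.9 in Lyl1-/-, against 218.5, 340.3 and 211.6 in WT. The Lyl1-/- arrays were the lowest at this probe set and did not overlap E2A-/-. E2A-/- 2 read 212.0, between WT 3 and WT 1. The levels came to 72.1% of WT in E2A-/- (limma adjusted p = 0.530) and 60.0% in Lyl1-/-. At 1429060_at the E2A-/- arrays read 268.2, 205.7 and 207.0 and the Lyl1-/- arrays 224.2, 232.1 and 255.1, against 261.4, 363.6 and 272.6 in WT. E2A-/- overlapped WT there (72.3% of WT, limma adjusted p = 0.473), and the Lyl1-/- arrays were all lower than WT (76.0%), the nearest by a small margin.

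WT 2 carried part of the difference at these probe sets, being the brightest WT array at all 3. Without WT 2, which leaves the averaged WT 1 and 3 as the lone WT sample, the Lyl1-/- difference at 1436202_at was -0.41 in place of -0.74. At 1429060_at it was -0.17 in place of -0.40. The same omission left 1418189_s_at at -1.84, and without WT 1 and 3 it was -1.83. For E2A-/-, leaving out WT 2 gave -0.14 at 1436202_at in place of -0.47 and -0.25 at 1429060_at in place of -0.47.

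The dimmest probe sets of Malat1 behaved differently from each other. At 1452378_at the arrays were tight within genotypes, with 102.6, 107.9 and 101.7 in E2A-/- and 94.2, 94.5 and 99.1 in Lyl1-/-, against 164.2, 136.9 and 161.8 in WT. The 3 genotypes did not overlap. E2A-/- had 69.6% of the WT level (-0.52, SE 0.101, limma adjusted p = 0.119) and Lyl1-/- 64.2% (-0.64, SE 0.101). With WT 1 and WT 3 as separate samples, the E2A-/- difference was -0.56 and passed (limma adjusted p = 0.0197). At 1427285_s_at the readings were 82.2, 86.9 and 98.2 in E2A-/- and 70.6, 79.2 and 98.6 in Lyl1-/-, against 82.4, 93.7 and 79.6 in WT. This probe set sat at the array medians of 77.9 to 79.2, and all 3 genotypes overlapped (0.03 in E2A-/-, limma adjusted p = 0.989, and -0.09 in Lyl1-/-). The lowest value on an array was 42.1 to 45.1, and whether differences of such dim probe sets are understated was not tested.

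**Figure D2:**
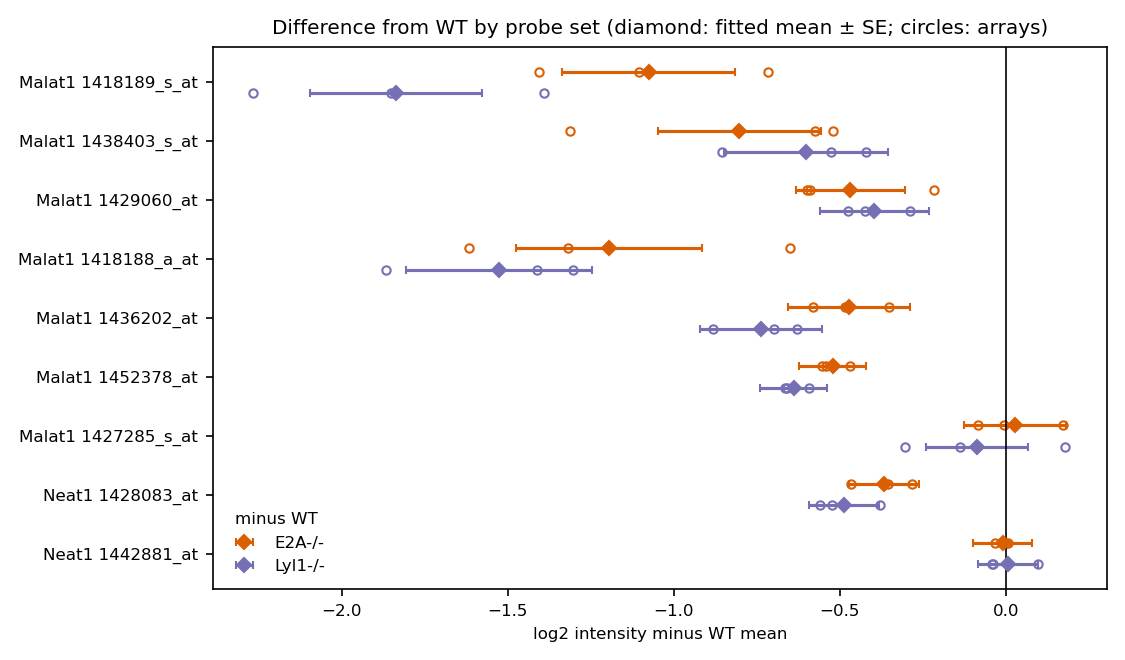
Log2 difference from WT (horizontal axis) of each Malat1 and Neat1 probe set in E2A-/- (upper of each pair) and Lyl1-/- (lower). Diamonds are fitted means with SE from limma and open circles are arrays. The Malat1 probe sets 1418189_s_at and 1418188_a_at lie beyond -1 in both knockouts, and 1427285_s_at and 1442881_at lie at 0 within their SE.

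Of the 7 Malat1 probe sets, 6 had a negative difference in E2A-/- and 7 in Lyl1-/-, with medians of -0.52 and -0.64. Over both genes, 0 of 9 probe sets passed an adjusted p of 0.05 in E2A-/- (limma), where 0.285% of all tested probe sets did. At an unadjusted p under 0.05 (limma), 7 of the 9 were lower in E2A-/-, where 5.72% of all tested probe sets were. All E2A-/- samples lay below all WT samples at 6 of the 9, against 13.8% of all tested probe sets. At 1436202_at this held only with WT 1 and WT 3 averaged. All Lyl1-/- samples lay below all WT samples at 7 of the 9, where 14.6% of all probe sets did and 0.26% passed the adjusted p. Nothing is read from the Lyl1-/- count, because the pair was selected on that comparison. The 7 probe sets are annotated to 1 gene and are not replicates of each other, and both comparisons share the WT samples. All 9 member probe sets passed the filter on dim values: 3 or more arrays had to exceed their own median. Of these, 7 did so on all 9 arrays, 1427285_s_at on 8 and 1442881_at on 7.

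The probe sets agreed more on direction than on size. On each array the median log2 difference from the WT mean over the 7 Malat1 probe sets was -0.54, -0.60 and -0.58 in E2A-/-. It was -0.66, -0.66 and -0.59 in Lyl1-/-, against -0.18, 0.17 and -0.16 in WT. The 6 knockout arrays thus lay within a narrow band by this median, although 1418189_s_at alone spread them widely. On E2A-/- 1 and on each Lyl1-/- array the median was the value of 1452378_at, a dim probe set with little spread within each knockout. The band therefore largely reflected that probe set and does not show agreement in size among the Malat1 probe sets. From the lowest to the highest probe set, the differences on 1 array spanned 0.634 to 1.61 in E2A-/- and 1.59 to 1.96 in Lyl1-/-, against 0.445 to 0.470 in WT. The log2 ratio of 1418189_s_at to 1429060_at was 1.63, 1.63 and 1.32 in E2A-/- and 0.34, 0.71 and 1.03 in Lyl1-/-, against 2.36, 1.91 and 2.37 in WT. The 3 genotypes did not overlap in this ratio, which was picked after its values were seen. Of the 6 ratios of 1418189_s_at to another Malat1 probe set, 5 had all Lyl1-/- arrays below all WT arrays and 3 had all E2A-/- arrays below them. All 6 ratios share 1 numerator, the probe set with the largest Lyl1-/- difference. No share over other pairs of probe sets was worked out, and the Lyl1-/- values served to select the pair. The unequal differences among the Malat1 probe sets are thus a description and were not tested.

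Across the 8 samples the 21 pairs of Malat1 probe sets all had positive correlations of log2 intensity (Pearson r from 0.0815 to 0.915, median 0.691). After each genotype's mean was taken out, 15 of the 21 were positive, with a range of -0.677 to 0.811 and a median of 0.197. These are descriptions over samples that share arrays and normalization.

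Neat1 was lower in both knockouts at its brighter probe set, 1428083_at. It read 162.2, 154.0 and 142.7 on the E2A-/- arrays and 137.2, 151.6 and 133.8 on the Lyl1-/- arrays, against 209.5, 186.3 and 207.6 on the WT arrays. All knockout arrays were below all WT arrays, and the knockouts overlapped each other. Mean log2 intensity was 7.26 ± 0.0929 in E2A-/- (SD, n = 3), 7.14 ± 0.0956 in Lyl1-/- (n = 3) and 7.62 ± 0.115 in WT (n = 2). These are 77.5% of WT in E2A-/- (-0.37, SE 0.106, limma adjusted p = 0.335, which misses the threshold) and 71.3% in Lyl1-/- (-0.49, SE 0.106). The other Neat1 probe set, 1442881_at, was at the array median, with 80.7, 81.0 and 78.8 in E2A-/- and 78.6, 78.5 and 86.3 in Lyl1-/-, against 80.0, 82.9 and 77.1 in WT. No genotype stood apart at it (-0.01 in E2A-/-, limma adjusted p = 0.996, and 0.01 in Lyl1-/-). The sources used here do not say which form of Neat1 either probe set reads.

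At 1418189_s_at the arrays with Xist or granulocyte transcripts were also the lower ones of their genotype. The Lyl1-/- arrays with Xist read 284.3 and 379.3, and the Lyl1-/- array without it read 521.6. With Xist signal as a covariate the Lyl1-/- difference was -1.60 in place of -1.84, and the E2A-/- difference -0.96 in place of -1.08. The E2A-/- arrays with granulocyte transcripts read 635.9 and 516.7, the lower being E2A-/- 3, which also had high erythroid and megakaryocyte markers, and E2A-/- 1 read 831.9. Left with E2A-/- 1 alone, the E2A-/- difference was -0.72, or 60.8% of WT. The bright Neat1 probe set then gave -0.28. Other Malat1 probe sets ordered the arrays differently. The Xist array Lyl1-/- 2 was the brightest of its genotype at 1418188_a_at (119.6), and Lyl1-/- 1 was at 1438403_s_at (236.7). At 1436202_at E2A-/- 2 and 3 (212.0 and 193.3) lay above E2A-/- 1 (180.7), and at 1427285_s_at they did so too. The hybridization controls rose from E2A-/- 1 to E2A-/- 3 as 1418189_s_at fell. Lyl1-/- 3, with the highest controls of its genotype, was instead the brightest Lyl1-/- array at this probe set. Whether these controls relate to Malat1 was not tested.

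The actin control compares probes near the 3-prime and the 5-prime end of the same mRNA, and a high ratio marks RNA that was broken or copied only in part. It was 2.85, 10.1 and 3.91 on the E2A-/- arrays and 2.93, 3.11 and 4.23 on the Lyl1-/- arrays, against 3.01, 10.6 and 3.32 on the WT arrays. E2A-/- 2 and WT 2 thus stood apart from the other 7 arrays, and the Gapdh control ratio set the same arrays apart (16.9 and 12.4, against 3.50 to 5.74). No Lyl1-/- array had a high ratio. Since the ratio fell into separate clusters, it was related to the probe sets only within the 6 samples of low ratio.

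No relation with the actin ratio was detectable at the 2 Malat1 probe sets that differed most from WT. At 1418189_s_at Pearson's r was -0.0575 (exact permutation p = 0.939) and Spearman's rho 0.143 (exact permutation p = 0.803), two-sided, and r was 0.253 without E2A-/- 3 and Lyl1-/- 3, the samples farthest from the median ratio. At 1418188_a_at r was -0.240 (exact permutation p = 0.675) and rho -0.2 (exact permutation p = 0.714). With the Gapdh ratio both r were positive, as given in the last section. Over the 7 Malat1 probe sets r ran from -0.251 to 0.899, with 2 of 7 positive, and rho from -0.314 to 0.657. The highest r was that of the dim 1427285_s_at (exact permutation p = 0.0583, 0.525 after adjustment over 9 relations), and it was 0.210 without the same 2 samples. At Neat1 1428083_at r was -0.410 and rho -0.429 (exact permutation p = 0.408 and 0.419, adjusted 0.939 and 0.903). In 6 samples only a very strong relation can pass such a test. These correlations also include the differences between genotypes, which could hide a relation within a genotype.

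The arrays of high actin ratio did not share a direction. E2A-/- 2 differed from the mean of E2A-/- 1 and 3 by -0.04 at 1418189_s_at, with a range of -0.77 to 0.18 over the 7 Malat1 probe sets, 5 of them lower. WT 2 differed from the mean of WT 1 and 3 by -0.01 at 1418189_s_at, with a range of -0.25 to 0.66, and 5 of 7 were higher. At 1438403_s_at the 2 arrays lay on opposite sides of their genotypes, E2A-/- 2 by -0.77 and WT 2 by 0.33. With both arrays left out the differences at 1418189_s_at were -1.06 in E2A-/- and -1.84 in Lyl1-/-, and with the ratio as a covariate -1.07 and -1.83. Leaving both out gave -0.80 at 1418188_a_at in E2A-/- in place of -1.20, and -1.35 in Lyl1-/- in place of -1.53. The E2A-/- difference was then -0.38 at 1438403_s_at in place of -0.80. It was -0.20 at 1436202_at and -0.18 at 1429060_at, both in place of -0.47. At 1452378_at it grew to -0.67 from -0.52, and at 1427285_s_at it was 0.15 in place of 0.03. This omission leaves the averaged WT 1 and 3 as the lone WT sample.

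**Figure D3:**
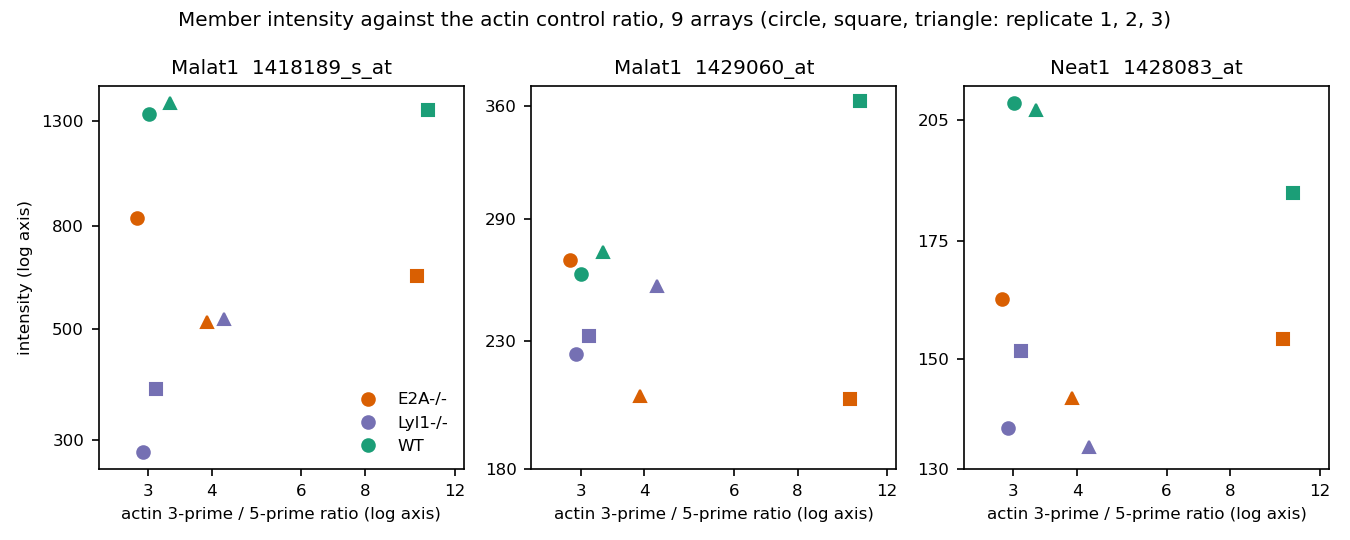
Intensity (log axis) of Malat1 1418189_s_at and 1429060_at and Neat1 1428083_at against the actin 3-prime over 5-prime ratio (log axis) on the 9 arrays, coloured by genotype and shaped by replicate. E2A-/- 2 and WT 2 lie at ratios of 10.1 and 10.6 and the other arrays at 2.85 to 4.23, and at 1418189_s_at the WT arrays lie on top at either ratio.

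Genes for proteins that work with these RNAs were set beside all tested genes. Among the 17 tested proteins of paraspeckles, 0 passed the adjusted p in E2A-/- and 0 in Lyl1-/- (limma), where 0.226% and 0.192% of the 11961 tested genes did. At so low a share, a count of 0 says little about lists of these sizes, here and below. The median difference of the paraspeckle genes was -0.01 in E2A-/- and -0.04 in Lyl1-/-, beside -0.01 and -0.00478 over all tested genes. At an unadjusted p under 0.05, 5.36% of tested genes were lower and 3.21% higher in E2A-/-, and 5% and 3.8% in Lyl1-/-. Cpsf6, a 3-prime end cleavage factor found in paraspeckles, read 257.5, 302.0 and 282.3 in E2A-/- and 274.2, 278.8 and 233.8 in Lyl1-/-, against 338.1, 375.2 and 339.5 in WT. Its knockout arrays all lay below WT (-0.35, limma adjusted p = 0.451 in E2A-/-, and -0.45, limma adjusted p = 0.293 in Lyl1-/-). The other members at an unadjusted p under 0.05 were the RNA-binding proteins Taf15 (-0.61, limma adjusted p = 0.573) and Hnrnpr (0.23, limma adjusted p = 0.537), both in E2A-/-. Next by p came Nudt21, a partner of Cpsf6 in cleavage factor I, with 0.23 in E2A-/- (limma adjusted p = 0.687). Nono, which binds Neat1, differed by -0.24 in Lyl1-/- (limma adjusted p = 0.705).

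Among 28 tested proteins of nuclear speckles and SR splicing factors, 0 passed in either knockout, with medians of -0.02 in E2A-/- and -0.04 in Lyl1-/-. Rbm25, a splicing regulator of speckles, read 188.9, 261.8 and 260.0 in E2A-/- and 221.4, 236.0 and 220.3 in Lyl1-/-, against 153.5, 190.6 and 155.1 in WT. Its differences were 0.45 and 0.40 (limma adjusted p = 0.480 and 0.543), with E2A-/- 1 just below WT 2. The kinase Prpf4b differed by -0.43 in E2A-/- (limma adjusted p = 0.547), and Srrm1, a splicing coactivator, by 0.34 (limma adjusted p = 0.586). The SR protein Srsf2 gave 0.42 in Lyl1-/- (limma adjusted p = 0.583). The large speckle scaffold protein Srrm2 gave -0.22 in Lyl1-/- (limma adjusted p = 0.618).

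Of 16 other long noncoding RNAs tested, 0 passed in either knockout, with medians of -0.04 in E2A-/- and -0.03 in Lyl1-/-, and 2 were lower in E2A-/- at an unadjusted p under 0.05. Kcnq1ot1, which silences an imprinted gene cluster, read 164.4, 151.0 and 104.1 in E2A-/- and 175.3, 161.2 and 159.3 in Lyl1-/-, against 193.9, 206.0 and 200.4 in WT. All its knockout arrays were below WT (-0.55, limma adjusted p = 0.412, and -0.29, limma adjusted p = 0.738). Dancr, also a small nucleolar RNA host, differed by -0.46 in E2A-/- (limma adjusted p = 0.464). Tug1 was uneven in E2A-/-, with 901.5, 487.7 and 990.6 on its arrays, against 996.1, 1396 and 995.9 in WT (-0.64, limma adjusted p = 0.638). Jpx, an RNA that activates Xist, differed by 0.18 in E2A-/- and 0.20 in Lyl1-/- (limma adjusted p = 0.658 and 0.572). Xist had the largest positive differences of the list (1.64 and 2.96) through the 3 arrays named above.

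Hosts of small nucleolar RNAs, transcripts that are spliced and mostly decay in the cytoplasm, had medians of 0.15 in E2A-/- and 0.04 in Lyl1-/- over 9 tested genes, and 0 passed. Snhg3 was the single member at an unadjusted p under 0.05 (0.30 in Lyl1-/-, limma adjusted p = 0.483). Of 22 genes of nuclear RNA decay and 3-prime end processing 0 passed, with medians of 0.04 and 0.00450. Elavl1, an RNA-binding protein that stabilises transcripts, read 141.3, 298.3 and 267.9 in E2A-/-, against 159.1, 118.8 and 150.2 in WT (0.73, limma adjusted p = 0.547). Mettl3, the m6A RNA methyltransferase, differed by -0.30 in E2A-/- (limma adjusted p = 0.700). Mettl16, which binds the 3-prime end of human Malat1, differed by -0.29 in E2A-/- (limma adjusted p = 0.774). Of 12 immediate early genes, which are switched on by handling stress, 0 passed. Their medians were -0.06 and -0.08, and Btg2, an antiproliferative gene, differed by 0.54 in E2A-/- (limma adjusted p = 0.238).

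Of the 10 annotated genes on each side of the pair on the chromosome, 14 were tested. Of these, 0 passed in either knockout, where 0.226% of all tested genes did in E2A-/- and 0.192% in Lyl1-/-. Their differences ran from -0.46 to 0.17 in E2A-/-, with a median of -0.08, and from -0.32 to 0.46 in Lyl1-/-, with a median of 0.00204. Map3k11, a kinase upstream of JNK, was the single neighbour at an unadjusted p under 0.05, with 209.2, 167.9 and 147.2 in E2A-/-, against 252.7, 232.1 and 234.2 in WT (-0.46, limma adjusted p = 0.399). In Lyl1-/- it gave -0.09. Frmd8, the gene next to Neat1, gave -0.10 in E2A-/- and 0.06 in Lyl1-/-.

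**Figure D4:**
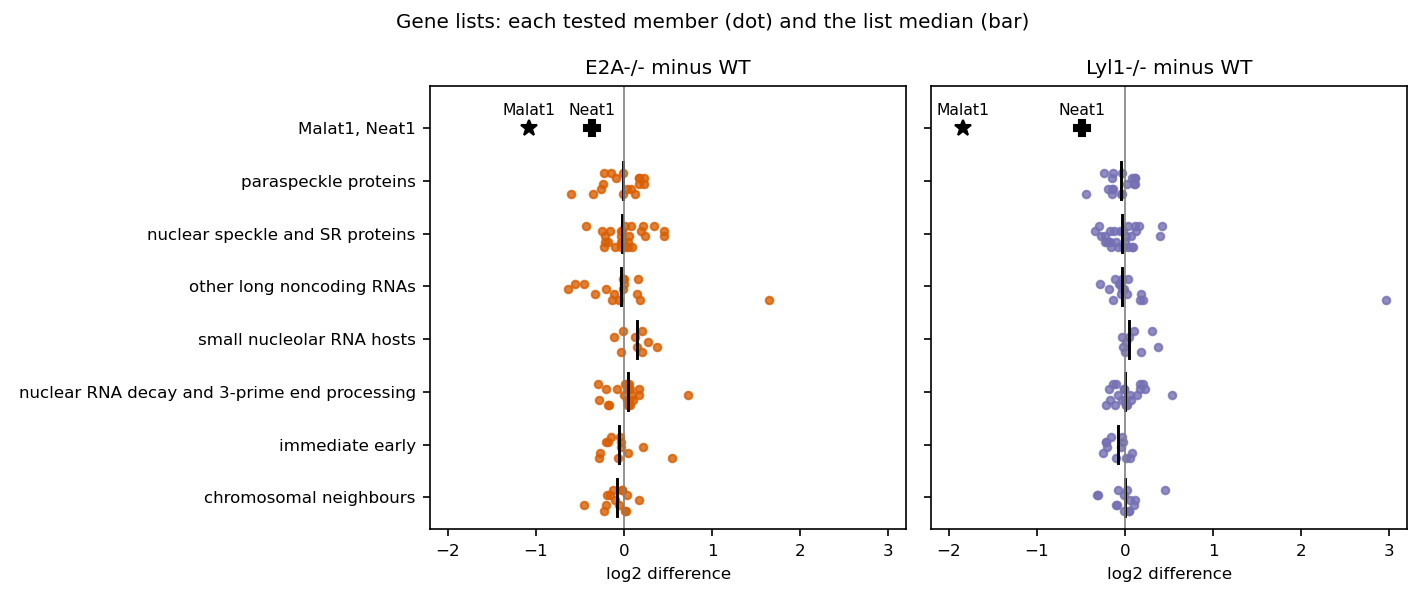
Log2 difference from WT (horizontal axis) of the tested members of each gene list in E2A-/- (left panel) and Lyl1-/- (right panel), with the list median as a bar and Malat1 and Neat1 at their brightest probe sets on top. The list medians lie between -0.08 and 0.15, with Malat1 at -1.08 and -1.84, and the far point at 1.64 and 2.96 is Xist.

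Genes whose log2 intensity ran most like Malat1 1418189_s_at over the 8 samples, by Pearson's r among 11960 other tested genes, were BC016579 (0.972), Akr1c13 (0.969), Unc119b (0.964), Zc3h7b (0.962) and Polr3f (0.957). Their differences between arrays were smaller than those of Malat1. BC016579 (65.2 to 92.0) and Polr3f (80.9 to 107.5) lay near the array medians of 77.9 to 79.2. Akr1c13, an aldo-keto reductase, read 822.6, 627.5 and 620.2 in E2A-/- and 463.3, 541.8 and 578.1 in Lyl1-/-, against 863.3, 953.8 and 819.1 in WT. In all, 47 genes (0.393%) had an r over 0.9 with Malat1. Neat1 1428083_at ranked 70th with 0.880.

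Most like Neat1 1428083_at were Prune2 (0.969), Glo1 (0.959), Dhx30 (0.959), Ehd3 (0.956) and Slc9a9 (0.952). Prune2 was dim, at 82.6 to 124.0. Glo1, the glyoxalase that removes methylglyoxal, read 679.4, 682.5 and 548.4 in E2A-/- and 569.8, 616.0 and 559.1 in Lyl1-/-, against 1314, 1229 and 1260 in WT. The count of genes with an r over 0.9 was 37 (0.309%). Malat1 ranked 55th. These correlations come from the same 8 samples in 3 genotypes and include the differences between genotypes.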

How the data were processed

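RNA from sorted progenitors was read on 9 Affymetrix arrays. The submitters' processing notes name RMA and oligo, with no version. The deposited values are intensities on a linear scale with nearly equal medians per array; the sources used here do not describe the authors' background step. Here log2 was taken with no pseudocount. Precision is limited by the number of arrays. The limma p-values set each difference against the spread between samples within genotypes, pooled over the 3 genotypes. WT adds only 2 samples to that spread, so it says little about variation between WT mice. Control probe sets were left out. Of 45037 others, 34945 had 1 annotated gene, 932 several and 9160 none. RefSeq (GRCm38.p6) matched 34754 by Entrez identifier, with 0 symbols changed.

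The 3 genotypes were fitted together over 8 samples with limma 3.58.1 in R 4.3.3 (lmFit, eBayes), with Benjamini-Hochberg adjustment and a threshold of 0.05, over 24212 probe sets and, with the brightest probe set per gene, over 11961 genes; a probe set entered if 3 or more arrays exceeded their own median. The fit was tested on simulated data. Correlations used exact permutation, which is not exact for deviations from the genotype mean. Samples were grouped by title. WT 1 and WT 3 were to be counted once if they differed no more at bright probe sets than at dim ones. Their ratio of 1.15 did not meet this to the letter, and they were counted once because it lay far below that of any other pair. The members, gene lists and tests were chosen with earlier results of these data known. Named genes were every member probe set, up to 4 members per list with the smallest p, neighbours at an unadjusted p under 0.05, and the 5 genes most like each member. Frmd8 and Map3k11 in Lyl1-/- were added to that rule. Alternatives were other normalizations, filters, covariates and sample sets. The fits with Xist as a covariate, without E2A-/- 2 and 3 and without WT 1 and 3 were added after the data were seen.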

Additional observations from a re-analysis of the deposited data

How the results depend on the processing

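With 9 arrays as separate samples, 223 probe sets and 97 genes passed in E2A-/- and 196 and 93 in Lyl1-/-, beside 69, 27, 63 and 23 in the 8 samples. Malat1 1452378_at then passed in E2A-/- (-0.56, limma adjusted p = 0.0197), 1 of 9 member probe sets, and no other alternative called a member. With the replicate block the counts were 145, 60, 112 and 55, with a limma adjusted p of 0.0533 for 1452378_at. Same-numbered arrays had correlations of -0.14 to 0.24 after genotype means were taken out. Arrays of different number were not set beside them, so whether the numbers pair the samples was not tested. In fits of only the compared groups 18 probe sets and 10 genes passed in E2A-/- and 15 genes in Lyl1-/-. A trended and robust spread gave 44 genes in each comparison. With the actin ratio as a covariate 34 probe sets and 12 genes passed in Lyl1-/-. Without the arrays of high actin ratio the counts were 18, 9, 18 and 8, with Xist as a covariate 39, 15, 16 and 7, and without E2A-/- 2 and 3 14 probe sets and 6 genes in E2A-/- and 15 genes in Lyl1-/-. Without WT 1 and 3 they were 36, 13, 41 and 14. Leaving out single arrays gave 19 to 75 probe sets and 8 to 36 genes in E2A-/-, and 16 to 75 and 7 to 34 in Lyl1-/-. Fewest genes passed without WT 2 (8 and 7) and, in Lyl1-/-, without Lyl1-/- 1 (7). The median difference of the 9 member probe sets in Lyl1-/- was -0.60, and -0.44 without WT 2 or without both arrays of high ratio. As single arrays were left out it ran from -0.64 to -0.44.

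Malat1 1418189_s_at, 1418188_a_at, 1438403_s_at, 1436202_at, 1429060_at and 1452378_at and Neat1 1428083_at were lower in both knockouts under every alternative that tested them; the stricter filter left 1427285_s_at, 1442881_at and 1452378_at untested. Over the alternatives 1418189_s_at ran from -1.26 to -0.72 in E2A-/- and from -2.06 to -1.60 in Lyl1-/-, and 1428083_at from -0.45 to -0.28 and from -0.57 to -0.41. In E2A-/- the sign of the dim 1427285_s_at turned without E2A-/- 3 (-0.044), without WT 1 and 3 (-0.077) and without E2A-/- 2 and 3 (-0.084), and as single arrays were left out it ran up to 0.13. That of 1442881_at turned with 9 arrays and with the replicate block (0.00347 each), the actin covariate (1.02e-04), without the high-ratio arrays (0.022), without WT 1 (0.00400), WT 2 (0.029) or E2A-/- 3 (0.00303), without E2A-/- 2 and 3 (6.58e-04) and with the Xist covariate (0.00979), and its lowest value was -0.023, without WT 3, as single arrays were left out. The correlation of 1418189_s_at with the control ratio was 0.562 with Gapdh in place of actin and 0.190 on deviations from the genotype mean. With Gapdh it was 0.379 at 1418188_a_at, 0.155 at 1428083_at, 0.0569 at 1429060_at, 0.424 at 1438403_s_at and 0.363 at 1452378_at, and on deviations 0.0269 at 1438403_s_at and 0.664 at 1452378_at, each with the other sign than with actin. The smallest adjusted permutation p among these was 0.500. The correlation of the dim 1427285_s_at was 0.968 on deviations (adjusted permutation p = 0.050, at the threshold and not under it). Taking out genotype means ties the values to each other and puts the lone WT sample at its own mean. Permutation p-values on deviations are therefore not exact and may be too small. The cause of these changes was not tested.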
